A study of Mus musculus with 22 samples.

Results

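The genes described here are the 8 subunits of the mouse condensin complexes (Smc2, Smc4, Ncapd2, Ncapd3, Ncapg, Ncapg2, Ncaph and Ncaph2) together with Top2a and Mki67. They were chosen by name, with earlier results of these data known, as proteins that shape mitotic chromosomes. They are 10 of the 48709 genes in the 2 count tables, and were found and tested in both. The tables hold 18 RNA libraries from ventricles of E13.5 mouse hearts, in 6 genotype groups of 3 libraries each. All hearts came from crosses with Nkx2.5-Cre, which is active in cardiac precursor cells, in mice kept on a C57/Bl6 background. The floxed Lin9 allele loses exon 7 and the floxed Sav1 allele loses exon 3 where Cre has acted, so that cells in which Cre was not active keep both genes. Experiment 1 compared LIN9 KO (Lin9 fl/fl) with LIN9 wt hearts, and the labels give Sav1 as wild-type in both. Experiment 2 held LIN9 wt Sav1 wt hearts (called control below), LIN9 KO hearts (Lin9 fl/fl; Sav1 +/+), Sav1 KO hearts (Sav1 fl/fl with LIN9 wt) and double KO hearts (Lin9 fl/fl; Sav1 fl/fl). The labels call LIN9 wt wild-type, while the study gives that background as Lin9 fl/+, so the LIN9 wt hearts may carry a single floxed copy. Polyadenylated RNA was sequenced, and the libraries held 9485599 to 9615274 counts in experiment 1 and 2770741 to 2999877 counts in experiment 2. The methods say that RNA was isolated in triplicate, and the study counts the 2 comparisons of LIN9 KO with LIN9 wt as biological replicates, each with triplicates, but neither these nor the labels say that the libraries of a group came from separate animals. Every p-value therefore measures only the spread between these libraries, which may be technical.

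Condensins are ring-shaped protein complexes that compact chromosomes as cells enter mitosis. Smc2 and Smc4 form the core of both complexes, condensin I adds Ncapd2, Ncapg and Ncaph, and condensin II adds Ncapd3, Ncapg2 and Ncaph2. Top2a, the topoisomerase that untangles sister chromatids, works beside condensin on the chromosome axis, and Mki67 encodes Ki-67, which coats mitotic chromosomes and is used to mark cycling cells, including cardiomyocytes of the growing heart. LIN9 is a subunit of the MuvB complex, which binds the cell cycle genes homology region (CHR) of mitotic promoters, and SAV1 is a scaffold of the Hippo kinase cascade.

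The promoters of Ncapd2, Top2a and Mki67 are shown because these were the genes that passed the test in at least 1 comparison below. RefSeq promoters on GRCm38.p6, from 250 bases before to 50 bases after the annotated start, were matched for 9 of the 10 genes in 10 windows, since Ncapd3 has 2 annotated starts; Smc4 and Lin9 are named only. Capitals mark the CHR letters TTTGAA or TTTAAA, the CCAAT box, and the E2F letters TTTGGCGC or TTTCGCGC, searched on both strands, so that matches on the opposite strand read TTCAAA and ATTGG. The Ncapd2 window is chr6:125191537-125191836, that of Top2a chr11:99024140-99024439 and that of Mki67 chr7:135716330-135716629, and all 3 are written 5′ to 3′ along the minus strand.
Ncapd2: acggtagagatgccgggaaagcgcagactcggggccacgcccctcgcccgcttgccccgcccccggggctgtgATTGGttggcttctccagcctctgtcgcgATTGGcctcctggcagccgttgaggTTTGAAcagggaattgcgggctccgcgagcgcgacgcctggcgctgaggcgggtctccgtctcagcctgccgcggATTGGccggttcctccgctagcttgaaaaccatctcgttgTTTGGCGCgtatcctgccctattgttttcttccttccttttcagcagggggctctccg
Top2a: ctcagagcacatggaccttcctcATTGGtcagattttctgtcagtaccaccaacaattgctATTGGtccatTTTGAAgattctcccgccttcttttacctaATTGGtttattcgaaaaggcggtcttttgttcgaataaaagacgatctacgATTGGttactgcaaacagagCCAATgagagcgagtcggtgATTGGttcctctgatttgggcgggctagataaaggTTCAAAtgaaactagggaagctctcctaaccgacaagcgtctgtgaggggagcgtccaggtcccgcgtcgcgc
Mki67: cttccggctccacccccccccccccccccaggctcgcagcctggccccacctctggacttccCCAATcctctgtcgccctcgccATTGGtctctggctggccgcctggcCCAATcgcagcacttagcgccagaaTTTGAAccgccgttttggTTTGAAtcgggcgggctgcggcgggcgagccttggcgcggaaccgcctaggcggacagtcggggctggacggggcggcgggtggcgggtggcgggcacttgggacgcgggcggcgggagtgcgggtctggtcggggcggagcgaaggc
TTTGAA stood 123 bases before the RefSeq start of Ncapd2, 179 and 23 bases before that of Top2a, and 116 and 98 bases before that of Mki67. The CCAAT box occurred 3 times in the Ncapd2 window, 6 times in that of Top2a and 3 times in that of Mki67. The Ncapd2 window also held TTTGGCGC, which overlapped none of the other motifs, 8 bases before the start. Among the 10 windows of these genes, 7 held TTTGAA, 1 held TTTAAA, 5 held CCAAT, 1 held TTTGGCGC and 0 held TTTCGCGC. Among all 32851 RefSeq promoters of the same length, TTTGAA was found in 17.9%, TTTAAA in 13.2%, CCAAT in 37.4%, TTTGGCGC in 0.514% and TTTCGCGC in 0.323%. The windows of Smc2, Ncapg and Ncapg2 and the second Ncapd3 window also held TTTGAA, while those of Ncaph and Ncaph2 and the first Ncapd3 window held none of the motifs. A match describes these letters only. The series also holds LIN9 ChIP-seq libraries of hearts, which were not used here, so binding at these promoters was not analysed here.

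The deleted genes were examined first. In experiment 1, Lin9 (ENSMUSG00000058729, chr1:180641150-180690694, mm10) stood at 29.8, 21.4 and 25.6 CPM (counts scaled to library size, after TMM normalisation) in the LIN9 wt libraries 1, 2 and 3, and at 21.4, 21.3 and 19.2 CPM in LIN9 KO. In experiment 2 it stood at 29.3, 28.1 and 23.2 CPM in control, 13.1, 15.4 and 17.9 CPM in LIN9 KO, 19.2, 31.4 and 25.6 CPM in Sav1 KO, and 23.5, 26.1 and 18.5 CPM in double KO. Each LIN9 KO library thus lay below every LIN9 wt Sav1 wt library of its experiment (in experiment 1 by less than the rounding shown for library 1 of LIN9 KO), whereas the libraries labelled double KO overlapped those of Sav1 KO and all lay above those of LIN9 KO. The fall in LIN9 KO of experiment 2 was 0.80 on the log2 scale (log2 fold change −0.80 ± 0.19 SE; edgeR quasi-likelihood test, Benjamini-Hochberg adjusted p = 0.0027), while that of experiment 1 did not pass (−0.31 ± 0.14; adjusted p = 0.13 in the same edgeR test), and double KO against Sav1 KO gave −0.16 ± 0.18 (edgeR adjusted p = 0.586). Counts run over the whole gene, most of which lies outside the deleted exon, and all cell types of the ventricle contribute, so a partial fall can be seen at most. The Lin9 level does not by itself bear out the LIN9 part of the double KO label, while the summed cardiomyocyte markers described below were near those of LIN9 KO (means of 12439 CPM in double KO, 11355 CPM in LIN9 KO and 24133 CPM in Sav1 KO). Directions drawn from those libraries rest on the labels. Sav1 (ENSMUSG00000021067, chr12:69965012-69987002) stood at 54.3, 51.5 and 55.3 CPM in LIN9 wt and 52.0, 49.9 and 43.0 CPM in LIN9 KO of experiment 1. In experiment 2 Sav1 stood at 54.5, 56.2 and 61.9 CPM in control, 51.9, 49.9 and 47.3 CPM in LIN9 KO, 43.1, 36.1 and 43.0 CPM in Sav1 KO, and 44.0, 40.5 and 42.3 CPM in double KO. All 6 libraries labelled with Sav1 deletion lay below all 6 without it in experiment 2. Neither contrast passed the test over all genes (Sav1 KO against control −0.50 ± 0.12, edgeR quasi-likelihood with Benjamini-Hochberg adjusted p = 0.318; double KO against LIN9 KO −0.23 ± 0.12, adjusted p = 0.464), and 25.4% of the exonic length of Sav1 lies under exons of Atl1.

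Several libraries stood apart in these genes. In experiment 2 library 1 of control differed from the mean of the other control libraries by −1.36 for Smc2, −1.65 for Smc4 and −1.58 for Mki67 on the log2 CPM scale. Library 1 of LIN9 KO differed from its group by −1.84 for Smc2, −1.81 for Smc4 and −1.25 for Mki67, and library 1 of Sav1 KO by −0.46, −0.61 and −0.83 for the same genes. In double KO, library 1 differed by 0.10, 0.10 and −0.33. Ncapg (−0.61, −0.87, −0.40 and 0.35 in control, LIN9 KO, Sav1 KO and double KO) and Ncapg2 (−0.78, −0.68, −0.29 and 0.10) were also lower in library 1 of those 3 groups and not of double KO, while Ncapd2 differed by no more than 0.19 in size (0.11, 0.15, −0.10 and −0.19). The difference was not limited to these genes. Of 8847 genes with a mean of at least 20 CPM, 158 were at least 1 lower on the log2 scale in library 1 of control than in the rest of its group, 287 in library 1 of LIN9 KO, 5 in library 1 of Sav1 KO and 10 in library 1 of double KO. Base composition moved with it, since the 1101 genes with under 42% GC in their longest transcript had a median difference of −0.28 in library 1 of control and −0.33 in library 1 of LIN9 KO, and the 3986 genes with over 50% GC had medians of 0.10 and 0.18. The longest transcripts of Ncapg (34.8% GC), Smc2 (39.7%) and Smc4 (40.2%) are low in GC, that of Mki67 (46.6%) is not, and those of Ncapd2 (54.0%) and Ncaph2 (55.7%) are high. Smc2, Smc4 and Mki67 stood near the low end of the 8847 genes. In library 1 of control 0.76%, 0.29% and 0.37% of those genes differed by a lower value. The shares were 0.86%, 0.89% and 2.2% in library 1 of LIN9 KO, and 1.8%, 0.75% and 0.10% in library 1 of Sav1 KO. In experiment 1, library 3 of LIN9 KO differed from its group by −0.95 for Smc2, −0.91 for Smc4 and −0.58 for Ncapg2. Library 2 of LIN9 wt differed by −0.49 for Smc2, −0.48 for Smc4 and −0.39 for Mki67, and library 1 of LIN9 wt by 0.49, 0.37 and 0.20. The cause of these differences was not tested. Where leaving out these libraries brought or ended a call among the 10 genes, values are given with and without them. Fits without a single library were planned, while the sets without several libraries numbered 1 were chosen after the values had been seen.

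**Figure D1:**
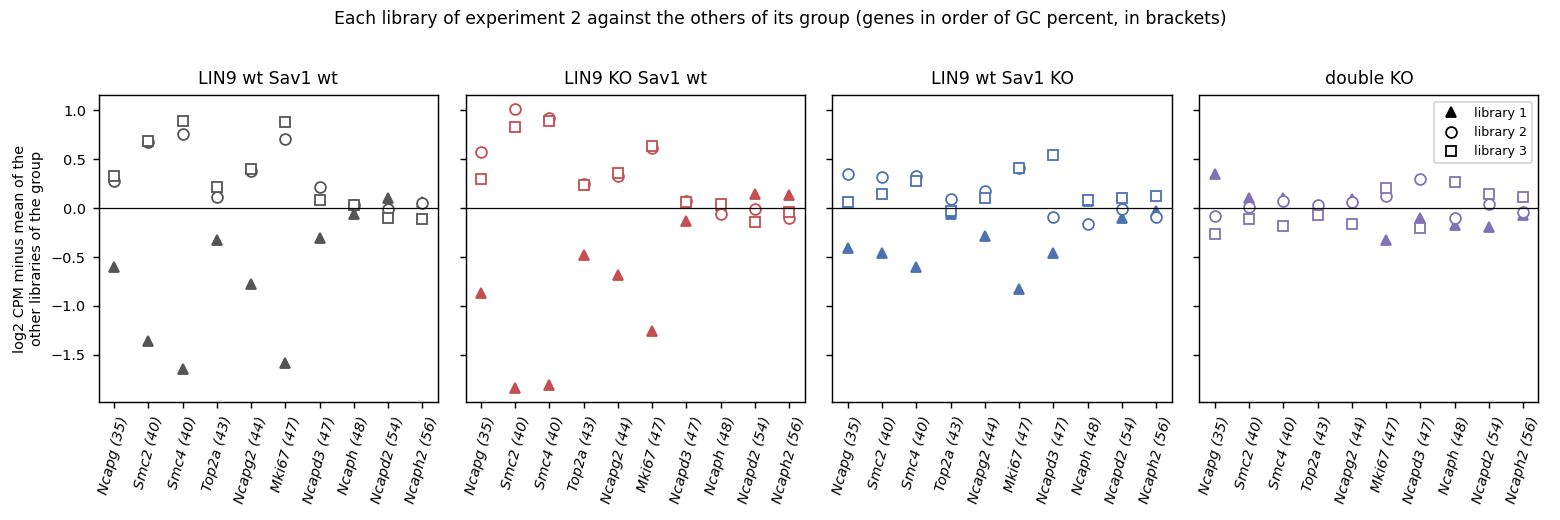
Each point is a library of experiment 2, placed on the vertical axis by its log2 CPM minus the mean of the other libraries of its group, for the 10 genes in order of transcript GC (percent in brackets). Filled triangles are libraries numbered 1, which lie at −1.36 to −1.84 for Smc2 and Smc4 in control and LIN9 KO and near 0 in double KO.

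Ventricles hold several cell types, and the marker lists differed between genotypes. Of 8 cardiomyocyte markers 7 were counted, with Myh7 the most abundant in 5 of the 6 groups (Tnnt2 in LIN9 KO of experiment 1) and Actc1 at 0 in all 18 libraries. Actc1 lies wholly within the span of another annotated gene, and so do Alas2, Nsmce3 and Nsmce4a, named below, which were also at 0. The submitters did not state how reads in overlapping genes were assigned, so a 0 in these 4 genes does not describe their expression. Summed cardiomyocyte markers stood at 19631, 19950.2 and 19803 CPM in LIN9 wt and 9366, 12385 and 8713 CPM in LIN9 KO of experiment 1. In experiment 2 the sums were 21824, 23078 and 23191 CPM in control, 12184, 11004 and 10876 CPM in LIN9 KO, 23986, 23703 and 24709 CPM in Sav1 KO, and 10872, 12779 and 13667 CPM in double KO. All LIN9 KO and double KO libraries therefore lay below all LIN9 wt libraries. The erythroid list (9 of 10 counted, Hbb-y most abundant in 5 of 6 groups and Hba-a1 in Sav1 KO, Alas2 at 0) ran the other way, at 10617, 7627 and 9001 CPM in LIN9 wt and 87303, 44072 and 33278 CPM in LIN9 KO of experiment 1. In experiment 2 the erythroid sums were 5203, 4166 and 4279 CPM in control, 20183, 29464 and 37721 CPM in LIN9 KO, 3566, 3265 and 4276 CPM in Sav1 KO, and 30006, 18775 and 10234 CPM in double KO. Within each experiment the erythroid sums of LIN9 KO and double KO did not overlap those of LIN9 wt.

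Markers of 3 further cell types were also higher in every LIN9 KO and double KO library. The fibroblast and mesenchymal list (7 of 7 counted, Col3a1 most abundant in all 6 groups) stood at 2583, 2333 and 2264 CPM in LIN9 wt and 4645, 5057 and 4968 CPM in LIN9 KO of experiment 1, and at 3045, 3189.7 and 2960.0 CPM in control, 6587, 6680.0 and 5273 CPM in LIN9 KO, 3086, 3465 and 2916 CPM in Sav1 KO and 5306, 5966 and 6817 CPM in double KO. The epicardial list (5 of 5, Upk3b most abundant in 4 of 6 groups and Tbx18 in control and Sav1 KO) stood at 261, 245 and 242 CPM against 441, 405 and 470.5 CPM in experiment 1, and at 217, 222 and 228 CPM in control, 395, 370.3 and 468 CPM in LIN9 KO, 192, 217 and 224 CPM in Sav1 KO and 353, 369 and 364 CPM in double KO. The macrophage list (6 of 6, Lyz2 most abundant in 5 of 6 groups and Csf1r in Sav1 KO) stood at 88.7, 88.8 and 97.6 CPM against 186, 175 and 201 CPM in experiment 1, and at 91.4, 95.6 and 89.9 CPM in control, 208, 178 and 187 CPM in LIN9 KO, 77.4, 73.3 and 87.7 CPM in Sav1 KO and 205, 212 and 226 CPM in double KO. Endothelial and endocardial markers (8 of 8 counted) differed less in sum. The most abundant was Pecam1 in LIN9 KO of both experiments and in double KO, Tie1 in LIN9 wt of experiment 1, Npr3 in control and Cdh5 in Sav1 KO. Their sums were 1195, 1317 and 1030.3 CPM in LIN9 wt and 1223, 1594 and 1235 CPM in LIN9 KO of experiment 1, with overlap, and in experiment 2 1139.6, 1185 and 1164 CPM in control, 1381, 1301 and 1250.4 CPM in LIN9 KO, 1078, 996 and 1066 CPM in Sav1 KO and 1140.1, 1312 and 1341 CPM in double KO. Within this list the genes differed in direction. Mean Kdr was 122 CPM in LIN9 wt and 74.3 CPM in LIN9 KO of experiment 1, and 125 and 70.7 CPM in control and LIN9 KO of experiment 2. Mean Pecam1 was 177 and 274 CPM, and 165 and 244 CPM, in the same groups. The part of these marker differences in the results below was not tested, and in whole ventricles fewer cells of a type and less RNA per cell cannot be told apart.

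**Figure D2:**
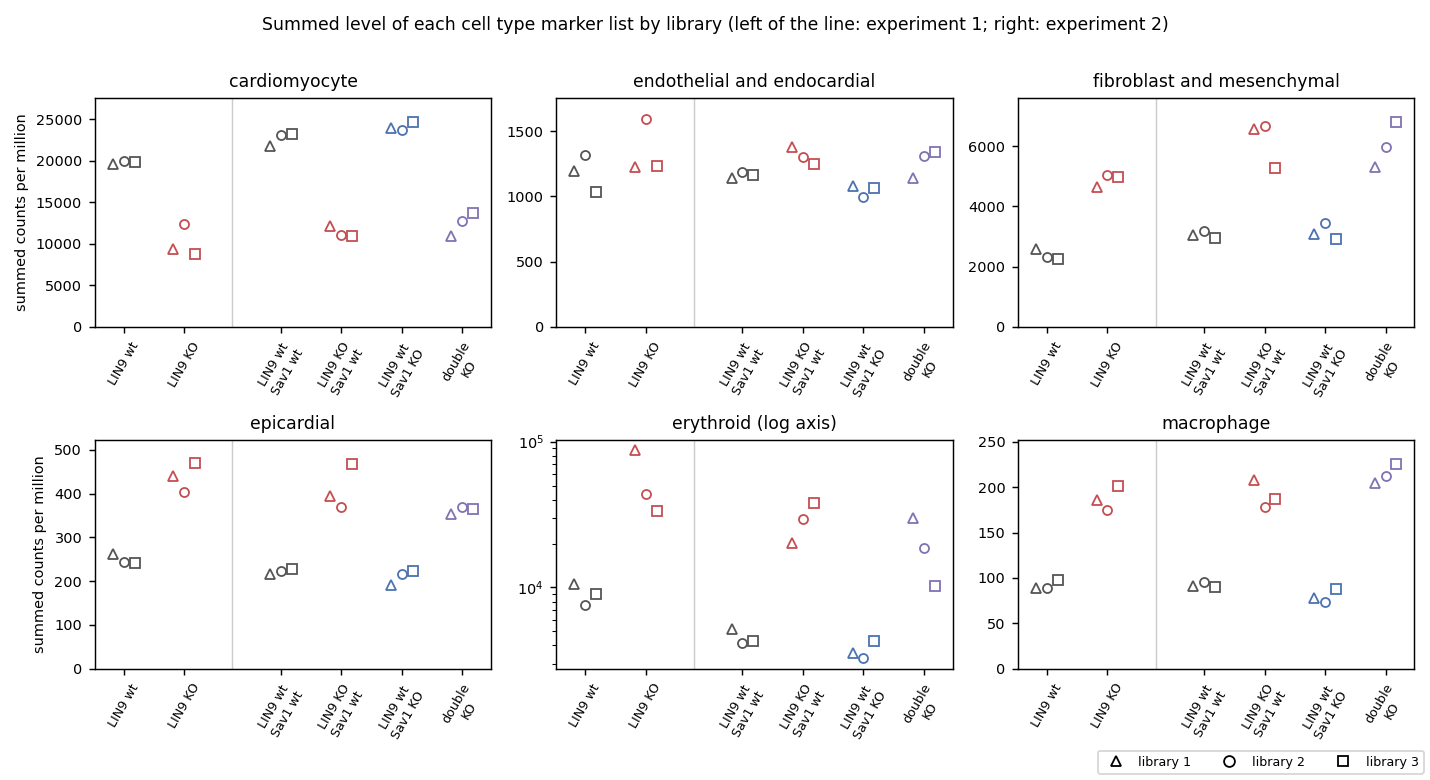
Summed CPM of each marker list (vertical axes, a log axis for the erythroid list) in each library, by genotype group, with experiment 1 left of the grey line. Cardiomyocyte sums lie between 8713 and 13667 CPM in the LIN9 KO and double KO libraries and between 19631 and 24709 CPM in the others.

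Of the condensin genes tested in 6 comparisons, Ncapd2 passed, lower, in each of the 3 that set libraries labelled Lin9 deleted against LIN9 wt. Top2a passed with it in experiment 2, and Mki67 in experiment 1, both lower. Mki67 did not pass in experiment 2, at log2 fold changes of −0.87 and −0.72, nor did Top2a in experiment 1 (−0.21). A difference between the experiments was not tested. In LIN9 KO against LIN9 wt of experiment 1, 2 of the 10 genes passed the threshold of 0.05 on the Benjamini-Hochberg adjusted p of the edgeR quasi-likelihood test, Ncapd2 and Mki67, both lower. Over all 19752 genes tested 20.9% passed, and 9.78% passed and were lower. The share of the 10 genes was thus near the background in either direction and above that of lower genes, from a count of 2. Whether it differs from that of all genes was not tested. In LIN9 KO against control of experiment 2, 2 of 10 passed, Ncapd2 and Top2a, both lower, beside 23.2% of 17675 genes in either direction and 10.5% lower. In double KO against Sav1 KO, 2 of 10 passed, again Ncapd2 and Top2a and lower, beside 23.4% in either direction and 11.6% lower. In Sav1 KO against control, 0 of 10 passed beside 0.017% of all genes, and 0 of 10 had an unadjusted p under 0.05, beside 693 of 17675 genes. For double KO against LIN9 KO, 0 of 10 passed beside 0.0113% of all genes, and 0 of 10 had an unadjusted p under 0.05, beside 2093 of 17675 genes. The interaction, the effect of Sav1 loss in LIN9 KO minus that in LIN9 wt, gave 0 of 10 beside 0% of all genes, with 1 of 10 and 1156 of 17675 genes at an unadjusted p under 0.05. DESeq2 also passed 0 of the 10 genes in each of these last 3 comparisons, though in double KO against LIN9 KO it gave 6 of them no adjusted p. Comparisons within experiment 2 share groups, so they are not independent of each other. Where every library of a group is said below to lie above or below every library of another, this is a description only. The share of all genes that separate in this way is not given here.

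**Figure D3:**
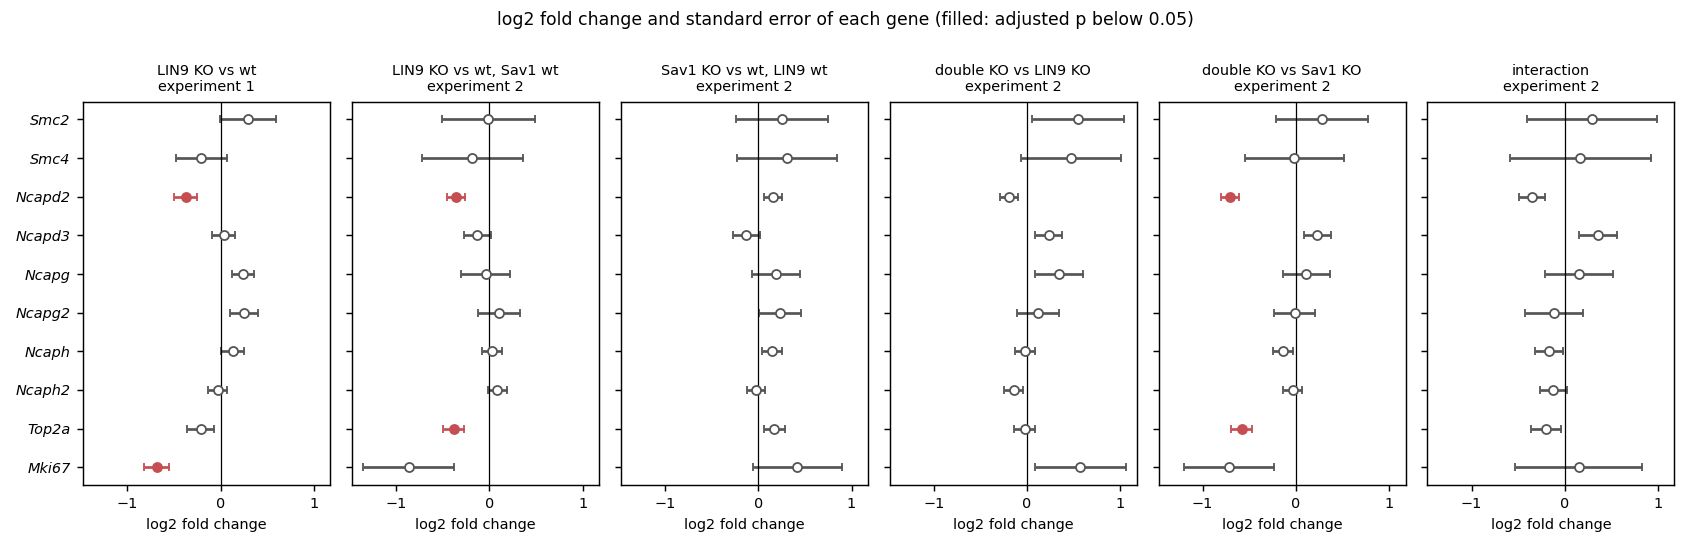
The log2 fold change of each of the 10 genes (points) with its standard error (bars) in the 6 comparisons, from edgeR, with filled points for an adjusted p below 0.05. Ncapd2 is filled in 3 panels, Top2a in 2 and Mki67 in 1, and each filled point lies left of 0.

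The median log2 fold change of the 10 genes lay near that of all genes tested in the comparisons of Lin9 with all libraries. It was −0.00042 beside 0.02 over all genes in experiment 1 (5 of 10 above 0, range −0.68 to 0.29), −0.08 beside 0.01 in LIN9 KO against control (3 of 10 above 0, −0.87 to 0.11) and −0.03 beside 0.03 in double KO against Sav1 KO (3 of 10 above 0, −0.72 to 0.28). In the comparisons of Sav1 the medians were higher, at 0.18 beside 0.0000805 in Sav1 KO against control (8 of 10 above 0, −0.13 to 0.42) and 0.17 beside 0.00093 in double KO against LIN9 KO (6 of 10 above 0, −0.19 to 0.57). These medians rested on single libraries. The first ran from 0.01 without library 1 of control to 0.27 without library 3 of control. The second ran from 0.04 without library 1 of LIN9 KO to 0.25 without library 2 of LIN9 KO. Without the 4 libraries numbered 1 they were 0.10 and 0.0042. The medians of the Lin9 comparisons also moved with single libraries, and changed sign. That of LIN9 KO against control ran from −0.31 without library 2 of LIN9 KO to 0.04 without library 3 of control. That of double KO against Sav1 KO ran from −0.11 without library 1 of Sav1 KO to 0.01 without library 3 of Sav1 KO, and was −0.14 without the 4 libraries. In experiment 1 the median ran from −0.05 to 0.08 without single libraries. The interaction gave a median of 0.02 beside −0.00092 (5 of 10 above 0, −0.35 to 0.36), and ran from −0.15 to 0.23 without single libraries. Scaling to total counts or by DESeq2 size factors changed the sign of 1 log2 fold change of the 10 genes with all libraries, that of Ncapd3 in experiment 1, which lay close to 0.

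The number of all genes that passed in the comparisons of Sav1 was small and turned on single libraries. In Sav1 KO against control the 3 genes were Sptb (log2 fold change 1.13 ± 0.15 SE, edgeR quasi-likelihood with Benjamini-Hochberg adjusted p = 0.00894), Gm4742 (1.18 ± 0.20, adjusted p = 0.0199) and Slit2 (−0.63 ± 0.10, adjusted p = 0.0155), named after their values were seen. The count became 7 without library 1 of LIN9 KO, 5 without library 3 of LIN9 KO, 2 without library 1 of control, and 0 without library 2 or 3 of control or any of the 3 Sav1 KO libraries. In double KO against LIN9 KO the 2 genes were Mt1 (−0.80 ± 0.14, edgeR quasi-likelihood with Benjamini-Hochberg adjusted p = 0.0303) and H1f0 (−0.64 ± 0.11, adjusted p = 0.0303), also named after their values were seen, and DESeq2 passed 77. That count became 378 without library 3 of LIN9 KO, 21 without library 1 of control, 15 without library 2 of double KO, 4 without library 1 of LIN9 KO, 1 without library 1 of double KO and 0 without any of the other 7 libraries. The interaction count of 0 became 64 without library 3 of LIN9 KO and 2 without library 1 of control. Members of the 10 passed in none of these fits that left out a single library.

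Levels between genes can be compared per kilobase of exonic length. In LIN9 wt of experiment 1 the order was Top2a (44.1 ± 7.06 CPM per kb, mean ± SD, n = 3), Ncapd2 (34.3 ± 4.10), Ncaph2 (28.1 ± 1.54), Smc4 (26.8 ± 5.20), Ncaph (16.2 ± 2.63), Smc2 (15.5 ± 3.51), Mki67 (13.9 ± 2.07), Ncapd3 (8.08 ± 0.855), Ncapg (5.85 ± 0.863) and Ncapg2 (5.21 ± 0.619). Ranges of mean ± SD overlapped for the neighbours Top2a and Ncapd2, Ncaph2 and Smc4, Ncaph with Smc2 and Smc2 with Mki67, and Ncapg and Ncapg2. In LIN9 KO of the same experiment Top2a remained at 38.0 ± 6.90 CPM per kb, Ncaph2 at 27.4 ± 1.67, Ncapd2 at 26.5 ± 3.36, Smc4 at 23.2 ± 7.51 and Mki67 at 8.65 ± 1.36. There Ncapd2 came after Ncaph2 in the order, within their spread. In control of experiment 2 the order was Top2a (52.5 ± 6.82 CPM per kb), Smc4 (46.4 ± 23.8), Ncapd2 (34.2 ± 1.68), Mki67 (31.9 ± 15.9), Ncaph2 (26.8 ± 1.17), Smc2 (25.4 ± 11.3), Ncaph (17.5 ± 0.396), Ncapd3 (8.35 ± 1.03), Ncapg (7.26 ± 1.65) and Ncapg2 (6.79 ± 1.91). The wide SD of Smc4, Mki67 and Smc2 comes with library 1, and only the step from Ncaph to Ncapd3 left no overlap of mean ± SD between neighbours in that group. Ncapd2 held place 3 of 10 in control, place 4 in LIN9 KO (26.8 ± 1.83 CPM per kb) and Sav1 KO (38.3 ± 1.83), and place 6 in double KO (23.4 ± 1.83). Ncapd3, Ncapg and Ncapg2 held the last 3 places in all 6 groups.

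**Figure D4:**
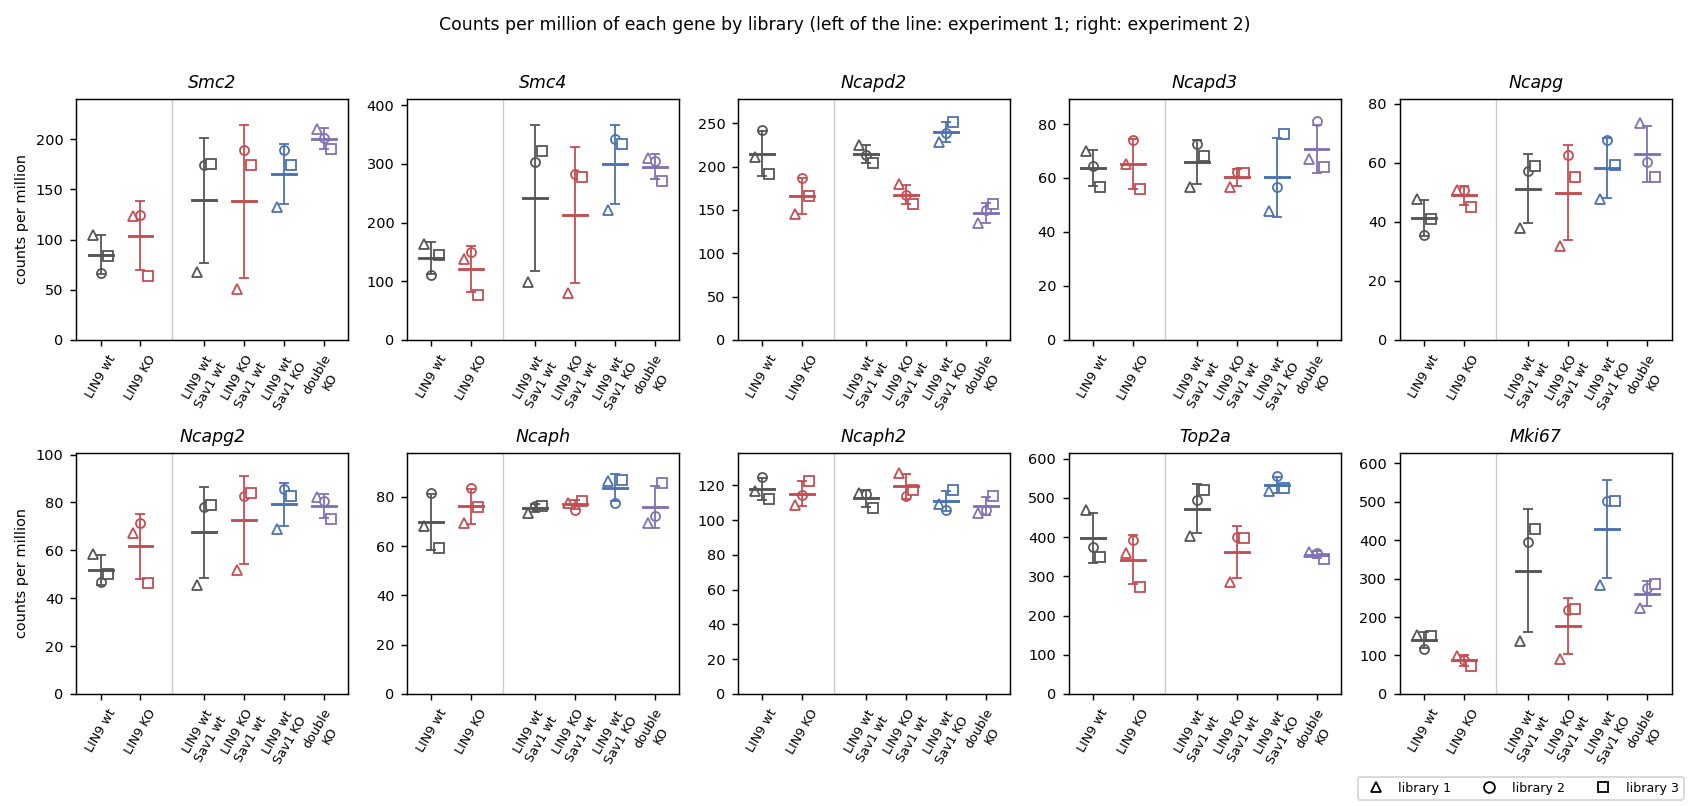
CPM of each of the 10 genes in each library (vertical axes, from 0), with bars for the group mean and whiskers for 1 SD, n = 3, and experiment 1 left of the grey line. Triangles, circles and squares are libraries 1, 2 and 3, and Ncapd2 in double KO (134, 149 and 157 CPM) lies below every Sav1 KO library.

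Smc2 (ENSMUSG00000028312, chr4:52439243-52488260), a part of the shared ATPase core, stood at 105, 66.4 and 83.4 CPM in LIN9 wt and at 124, 124 and 64.1 CPM in LIN9 KO of experiment 1. In experiment 2 it stood at 67.5, 174 and 175 CPM in control, 50.3, 189.6 and 174 CPM in LIN9 KO, 132, 189 and 175 CPM in Sav1 KO, and 210.3, 201 and 190.3 CPM in double KO. Libraries 1 of control and LIN9 KO were the low ones, and the double KO libraries lay above all others, at the closest by 190.3 against 189.6 CPM. Smc2 passed the test in none of the 6 comparisons with all libraries. In experiment 1 its log2 fold change was 0.29 ± 0.30 (edgeR quasi-likelihood, Benjamini-Hochberg adjusted p = 0.582), and without library 3 of LIN9 KO it was 0.54 (adjusted p = 0.0204). It was 0.47 without library 1 of LIN9 wt, and 0.14, 0.15 and 0.14 without library 2 of LIN9 wt, library 1 of LIN9 KO and library 2 of LIN9 KO. Double KO against LIN9 KO gave 0.54 ± 0.49 (edgeR quasi-likelihood, Benjamini-Hochberg adjusted p = 0.723), which became 0.11 without the 4 libraries numbered 1. Of single libraries, leaving out library 1 of LIN9 KO gave 0.15 and leaving out library 2 of LIN9 KO gave 0.86. Double KO against Sav1 KO gave 0.28 ± 0.49 (edgeR quasi-likelihood, Benjamini-Hochberg adjusted p = 0.745). That value was 0.28 (adjusted p = 0.0228) without libraries 1 of control and LIN9 KO, 0.28 (adjusted p = 0.0429) in a fit of the 6 libraries of these groups alone, and 0.10 (adjusted p = 0.425) without the 4 libraries numbered 1. Without library 1 of Sav1 KO it was 0.14. The sets without several libraries numbered 1 were chosen after the values had been seen.

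Smc4 (ENSMUSG00000034349, chr3:69004738-69034623), its partner in the core, stood at 164, 110.4 and 145 CPM in LIN9 wt and 138, 149 and 76.4 CPM in LIN9 KO of experiment 1. In experiment 2 Smc4 stood at 99.4, 304 and 323 CPM in control, 79.2, 282 and 278 CPM in LIN9 KO, 222, 342 and 334 CPM in Sav1 KO, and 309.8, 306 and 271 CPM in double KO. The groups overlapped in every comparison. In experiment 2 library 1 was the lowest of each group but double KO. Double KO against Sav1 KO gave −0.02 ± 0.53 (edgeR quasi-likelihood, Benjamini-Hochberg adjusted p = 0.984). Without the 4 libraries numbered 1 it was −0.23 ± 0.08 (adjusted p = 0.037), and without libraries 1 of control and LIN9 KO alone −0.02 (adjusted p = 0.935). Single libraries moved it from −0.19 without library 1 of Sav1 KO to 0.09 without library 2 of Sav1 KO, so its sign is not settled. Libraries numbered 1 were left out together only after the values had been seen.

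Among the condensin I subunits, Ncapd2 (ENSMUSG00000038252, chr6:125168007-125191701), the HEAT-repeat subunit whose promoter is shown above, stood at 211, 243 and 192 CPM in LIN9 wt and 145, 187 and 166 CPM in LIN9 KO of experiment 1. In experiment 2 it stood at 225, 214 and 204 CPM in control, 179, 167 and 157 CPM in LIN9 KO, 229, 239 and 252 CPM in Sav1 KO, and 134, 149 and 157 CPM in double KO. Every LIN9 KO library lay below every LIN9 wt library in both experiments, every library labelled double KO lay below every Sav1 KO library, and every Sav1 KO library lay above every control library. In experiment 1 Ncapd2 fell to 0.772 of its LIN9 wt level (log2 fold change −0.37 ± 0.12 SE; edgeR quasi-likelihood, Benjamini-Hochberg adjusted p = 0.0409). That call was lost without library 1 of LIN9 wt (adjusted p = 0.109), library 2 of LIN9 wt (0.192) or library 1 of LIN9 KO (0.197), with log2 fold changes of −0.39, −0.28 and −0.28. In LIN9 KO of experiment 2 it fell to 0.782 of control (−0.36 ± 0.10; edgeR quasi-likelihood, Benjamini-Hochberg adjusted p = 0.007), and in double KO to 0.612 of Sav1 KO (−0.71 ± 0.10; adjusted p = 2.92e-06). Both calls were kept without any single library and without the 4 libraries numbered 1, where the log2 fold changes were −0.37 and −0.69. Sav1 KO against control gave 0.16 ± 0.10 (edgeR quasi-likelihood, unadjusted p = 0.101, Benjamini-Hochberg adjusted p = 0.999), and double KO against LIN9 KO −0.19 ± 0.10 (unadjusted p = 0.0577, adjusted p = 0.449), with overlap. The latter was −0.08 without the 4 libraries. The interaction was −0.35 ± 0.14 (edgeR quasi-likelihood, unadjusted p = 0.0147, Benjamini-Hochberg adjusted p = 0.68), so a difference between the Lin9 effects with and without Sav1 did not pass. Of the exonic length of Ncapd2, 3.78% lies under other annotated genes.

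Ncapg (ENSMUSG00000015880, chr5:45669919-45700546), a second HEAT-repeat subunit, stood at 47.7, 35.5 and 40.8 CPM in LIN9 wt and 50.9, 50.9 and 45.1 CPM in LIN9 KO of experiment 1. In experiment 2 Ncapg stood at 37.9, 57.2 and 58.8 CPM in control, 31.9, 62.7 and 55.2 CPM in LIN9 KO, 47.8, 67.9 and 59.4 CPM in Sav1 KO, and 73.6, 60.2 and 55.1 CPM in double KO. All groups compared overlapped, and library 1 was the lowest of its group in control, LIN9 KO and Sav1 KO and the highest in double KO. Ncaph (ENSMUSG00000034906, chr2:127103809-127133954), the kleisin that closes the condensin I ring, stood at 68.2, 81.7 and 59.2 CPM in LIN9 wt and 69.2, 83.5 and 75.8 CPM in LIN9 KO of experiment 1. In experiment 2 Ncaph stood at 73.5, 76.4 and 76.4 CPM in control, 77.6, 74.8 and 78.3 CPM in LIN9 KO, 86.5, 77.3 and 87.0 CPM in Sav1 KO, and 69.5, 72.2 and 85.7 CPM in double KO. The Sav1 KO libraries all lay above control, while the groups of the other comparisons overlapped. Neither gene passed the test in any comparison. Ncapg shares 13.4% of its exonic length with exons of Lcorl on the opposite strand, and the submitters did not state whether counting used strand.

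Of the condensin II subunits, Ncapd3 (ENSMUSG00000035024, chr9:27030175-27095315) stood at 70.0, 64.6 and 56.6 CPM in LIN9 wt and 65.3, 74.2 and 55.9 CPM in LIN9 KO of experiment 1. In experiment 2 it stood at 56.8, 72.6 and 68.1 CPM in control, 56.5, 62.3 and 61.9 CPM in LIN9 KO, 47.8, 56.7 and 76.4 CPM in Sav1 KO, and 67.1, 81.0 and 64.0 CPM in double KO. Every double KO library lay above every LIN9 KO library, and the groups otherwise overlapped. Double KO against Sav1 KO gave 0.23 ± 0.14 (edgeR quasi-likelihood, Benjamini-Hochberg adjusted p = 0.265), which passed only without library 3 of Sav1 KO (0.44, adjusted p = 0.0365). It was 0.09 without library 1 of Sav1 KO, 0.10 without library 2 of double KO and 0.12 without the 4 libraries numbered 1. The interaction was 0.36 ± 0.20 (edgeR quasi-likelihood, unadjusted p = 0.0868, Benjamini-Hochberg adjusted p = 0.799), and 0.56 without library 3 of Sav1 KO.

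Ncapg2 (ENSMUSG00000042029, chr12:116405402-116463731) stood at 58.6, 46.7 and 50.0 CPM in LIN9 wt and 67.3, 71.4 and 46.2 CPM in LIN9 KO of experiment 1. In experiment 2 Ncapg2 stood at 45.5, 78.1 and 78.9 CPM in control, 51.6, 82.7 and 83.9 CPM in LIN9 KO, 69.0, 85.8 and 82.9 CPM in Sav1 KO, and 82.1, 80.7 and 72.9 CPM in double KO. The groups overlapped in every comparison. In experiment 1 its log2 fold change was 0.25 ± 0.15 (edgeR quasi-likelihood, Benjamini-Hochberg adjusted p = 0.291), and it passed only without library 3 of LIN9 KO (0.42, adjusted p = 0.00786). Without library 2 of LIN9 KO it was 0.13. Ncaph2 (ENSMUSG00000008690, chr15:89355719-89372826), the kleisin of condensin II, stood at 117, 125 and 112 CPM in LIN9 wt and 109, 114 and 123 CPM in LIN9 KO of experiment 1. In experiment 2 Ncaph2 stood at 116, 115 and 107 CPM in control, 127, 114 and 117 CPM in LIN9 KO, 109, 106 and 117 CPM in Sav1 KO, and 104, 106 and 114 CPM in double KO. Its groups overlapped in every comparison and it passed none, though 19.8% of its exonic length lies under exons of Sco2 and Tymp on the opposite strand.

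Top2a (ENSMUSG00000020914, chr11:98992943-99024189) stood at 469.7, 374 and 349 CPM in LIN9 wt and 361, 394 and 273 CPM in LIN9 KO of experiment 1. In experiment 2 it stood at 404, 495 and 521 CPM in control, 286, 402 and 399 CPM in LIN9 KO, 517, 555 and 525 CPM in Sav1 KO, and 361, 359.9 and 345 CPM in double KO. The groups overlapped in experiment 1, whereas in experiment 2 LIN9 KO lay wholly below control and the libraries labelled double KO wholly below Sav1 KO. In experiment 1 the log2 fold change was −0.21 ± 0.15 (edgeR quasi-likelihood, Benjamini-Hochberg adjusted p = 0.359), and in LIN9 KO of experiment 2 Top2a fell to 0.766 of control (−0.39 ± 0.11; adjusted p = 0.0141). The first value was −0.08 without library 1 of LIN9 wt or library 3 of LIN9 KO, and −0.33 without library 2 of LIN9 KO. The second call was lost without library 3 of control (−0.31, edgeR quasi-likelihood with Benjamini-Hochberg adjusted p = 0.103) or library 1 of LIN9 KO (−0.26, adjusted p = 0.0706), and kept without all 4 libraries numbered 1 (−0.35, adjusted p = 0.00117). Double KO fell to 0.668 of Sav1 KO (−0.58 ± 0.11; edgeR quasi-likelihood, Benjamini-Hochberg adjusted p = 0.000381), a call kept without any single library and at −0.62 without the 4 libraries. Sav1 KO against control gave 0.17 ± 0.11 (edgeR quasi-likelihood, Benjamini-Hochberg adjusted p = 0.999), with overlap, and the interaction −0.20 ± 0.16 (adjusted p = 0.878). The former was 0.07 without library 1 of control and 0.09 without the 4 libraries. The interaction was −0.08 without library 1 of control, and −0.33, −0.11 and −0.12 without libraries 1, 2 and 3 of LIN9 KO.

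Mki67 (ENSMUSG00000031004, chr7:135689784-135716361) stood at 152, 116 and 151 CPM in LIN9 wt and 99.4, 89.2 and 72.3 CPM in LIN9 KO of experiment 1. In experiment 2 it stood at 137, 396 and 429 CPM in control, 91.4, 217 and 220.0 CPM in LIN9 KO, 282, 502 and 503 CPM in Sav1 KO, and 223, 275 and 285 CPM in double KO. The groups of experiment 1 did not overlap, while in experiment 2 library 1 was the lowest of each group and made LIN9 KO overlap control and double KO overlap Sav1 KO. In experiment 1 Mki67 fell to 0.622 of LIN9 wt (log2 fold change −0.68 ± 0.14 SE; edgeR quasi-likelihood, Benjamini-Hochberg adjusted p = 0.00236), a call kept without any single library. LIN9 KO against control gave −0.87 ± 0.49 (edgeR quasi-likelihood, Benjamini-Hochberg adjusted p = 0.264) and double KO against Sav1 KO −0.72 ± 0.48 (adjusted p = 0.342), and neither passed. The former was −0.56 without library 1 of LIN9 KO and −1.24 without library 1 of control, so single libraries moved its size. Without the 4 libraries numbered 1 both passed, at −0.92 ± 0.08 (edgeR quasi-likelihood, Benjamini-Hochberg adjusted p = 1.65e-11) and −0.85 ± 0.08 (adjusted p = 9.61e-11). Without only libraries 1 of control and LIN9 KO neither did, at −0.92 ± 0.28 (edgeR quasi-likelihood, Benjamini-Hochberg adjusted p = 0.0664) and −0.72 (adjusted p = 0.0599). These sets were chosen after the values had been seen, with library 1 the lowest of each group in Mki67. Without the 4 libraries only libraries 2 and 3 of each group remained. The smaller SE and p of such fits are not independent of that choice. Every double KO library lay above every LIN9 KO library, at the closest by 223 against 220.0 CPM. The log2 fold change was 0.57 ± 0.49 (edgeR quasi-likelihood, Benjamini-Hochberg adjusted p = 0.702), which without the 4 libraries was 0.36 ± 0.08 (adjusted p = 0.0233) and without library 1 of LIN9 KO 0.26. Sav1 KO against control gave 0.42 ± 0.48 with overlap (edgeR quasi-likelihood, Benjamini-Hochberg adjusted p = 0.999), and 0.28 (adjusted p = 0.294) without the 4 libraries. It was 0.06 without library 1 of control, 0.69 without library 3 of control and 0.64 without library 1 of Sav1 KO.

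The count of the 10 genes that passed moved with the libraries kept. Without the 4 libraries numbered 1 it was 3 in LIN9 KO against control, beside 4308 genes in all, with Mki67 added to Ncapd2 and Top2a. It was 4 in double KO against Sav1 KO, with Smc4 and Mki67 added, beside 4407 genes in all. It was 1 in double KO against LIN9 KO (Mki67, beside 134 genes in all), and 0 in Sav1 KO against control and in the interaction (beside 13 and 19). Without only libraries 1 of control and LIN9 KO it was 2 in LIN9 KO against control, beside 3863 genes in all, and 3 in double KO against Sav1 KO, where Smc2 was added, beside 5187. Except for library 1 of double KO, which was not low in most of these genes, the libraries left out were chosen as low in them. The smaller SE is not independent of that choice. In experiment 1 the count of all genes that passed fell from 4131 to 2722 without library 3 of LIN9 wt. With all libraries 23.2% of all genes passed in LIN9 KO against control and 23.4% in double KO against Sav1 KO, in either direction. Whether the share of the 10 genes differs from that of all genes in the fits without libraries numbered 1 was not tested.

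**Figure D5:**
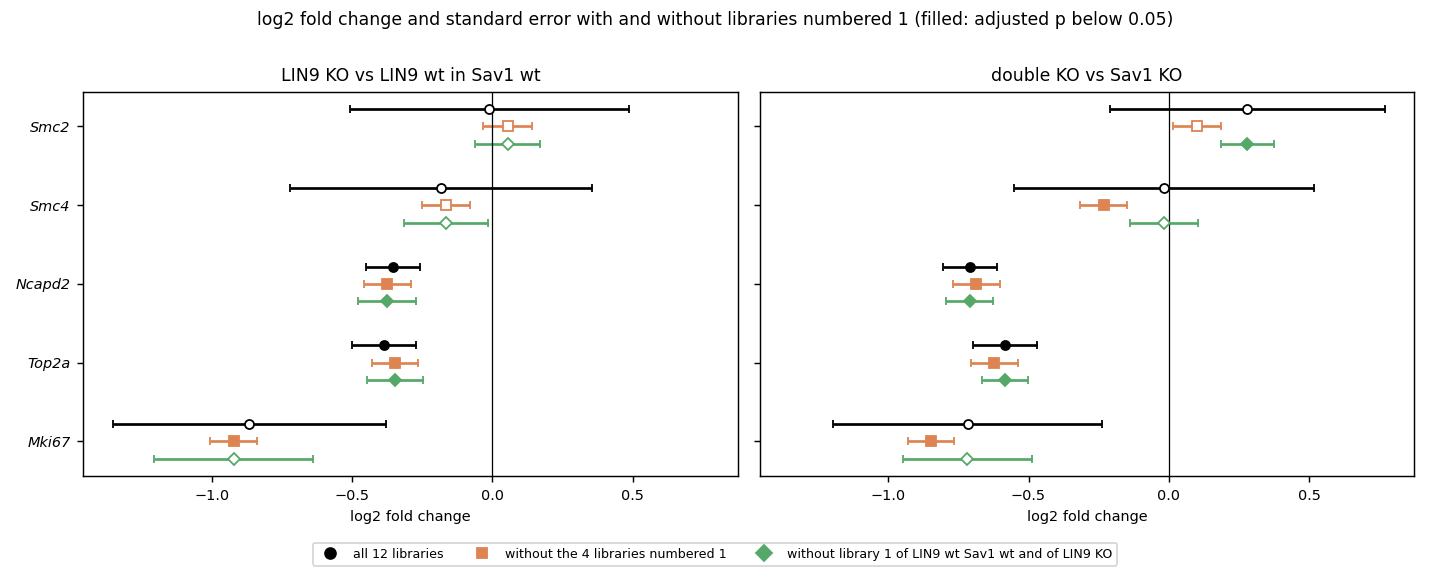
The log2 fold change (horizontal axis) and standard error of 5 genes in LIN9 KO against control and in double KO against Sav1 KO, with all 12 libraries (circles), without the 4 libraries numbered 1 (squares) and without library 1 of control and of LIN9 KO (diamonds), filled for an adjusted p below 0.05. Ncapd2 and Top2a are filled in each set, and Mki67 is filled only without the 4 libraries, at −0.92 and −0.85. Both sets without libraries numbered 1 were chosen after the values had been seen.

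Related genes were read from 2 lists, chosen with earlier results of these data known. The list of cohesin and SMC5/6 genes, the complexes that hold sister chromatids together and that act in DNA repair, held 19 genes, of which 17 were tested and Nsmce3 and Nsmce4a were at 0. Rad21, the kleisin of cohesin, was the 1 gene of 17 that passed in each comparison of Lin9, lower each time. Of all genes 9.78%, 10.5% and 11.6% passed and were lower, which is a larger share. Its mean fell from 346 to 253 CPM in experiment 1 (log2 fold change −0.45 ± 0.11 SE; edgeR quasi-likelihood, Benjamini-Hochberg adjusted p = 0.00968), from 339 to 279 CPM in LIN9 KO against control (−0.28 ± 0.09; adjusted p = 0.0293) and from 383 to 243 CPM in double KO against Sav1 KO (−0.65 ± 0.09; adjusted p = 7.18e-06). No gene of the list passed in the other 3 comparisons by edgeR or DESeq2. DESeq2 gave 15 of the 17 no adjusted p in double KO against LIN9 KO. Among the 17, 0 (Sav1 KO against control), 2 (double KO against LIN9 KO) and 1 (interaction) had an unadjusted p under 0.05, beside 693, 2093 and 1156 of 17675 genes. The list's median log2 fold changes were 0.07, −0.12, 0.13, 0.27, 0.04 and 0.20 in experiment 1, LIN9 KO against control, Sav1 KO against control, double KO against LIN9 KO, double KO against Sav1 KO and the interaction. Smc1a and Smc3, the SMC pair of cohesin, passed in none, with log2 fold changes of 0.17 ± 0.21 and 0.16 ± 0.22 in experiment 1 and −0.20 ± 0.17 and −0.13 ± 0.48 in LIN9 KO against control.

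The list of condensin partners held 11 genes, all tested: kinases that act on condensin, other topoisomerases, and proteins that bind condensin or Ki-67. In experiment 1, 3 of 11 passed, all lower, in LIN9 KO against control 4 of 11, all lower, and in double KO against Sav1 KO 6 of 11, all lower (DESeq2 passed 3, 4 and 5). Over all genes 9.78%, 10.5% and 11.6% passed and were lower in these comparisons. Whether the list differs from all genes was not tested, and the list was chosen with earlier results of these data known. Ccnb1, the cyclin of the mitotic kinase Cdk1, fell from 117 to 61.7 CPM in experiment 1 (log2 fold change −0.92 ± 0.11 SE; edgeR quasi-likelihood, Benjamini-Hochberg adjusted p = 4.28e-05), from 98.7 to 51.0 CPM in LIN9 KO of experiment 2 (−0.95 ± 0.11; adjusted p = 2.38e-07) and from 94.1 to 44.0 CPM between Sav1 KO and double KO (−1.09 ± 0.11; adjusted p = 3.49e-08). Plk1, a mitotic kinase, fell in the same comparisons by 0.72, 0.64 and 1.20 on the log2 scale (edgeR quasi-likelihood, Benjamini-Hochberg adjusted p = 0.000453, 0.00247 and 1.88e-06). Kif4, a chromokinesin that binds condensin I, did not pass in experiment 1 (−0.15 ± 0.15; edgeR quasi-likelihood, Benjamini-Hochberg adjusted p = 0.564) and fell in LIN9 KO of experiment 2 (−0.53 ± 0.12; adjusted p = 0.00173) and in double KO against Sav1 KO (−0.50 ± 0.12; adjusted p = 0.00269). Top2b, the topoisomerase that is also present outside mitosis, passed in none (−0.13 ± 0.20, −0.34 ± 0.27 and −0.03 ± 0.27 in those comparisons), nor did Mcph1, which restrains condensin II (0.09 ± 0.12, 0.12 ± 0.16 and 0.16 ± 0.16). In Sav1 KO against control, double KO against LIN9 KO and the interaction, 0 of 11 passed by edgeR or DESeq2, with 0, 2 and 2 at an unadjusted p under 0.05, beside 693, 2093 and 1156 of 17675 genes. DESeq2 gave 10 of the 11 no adjusted p in double KO against LIN9 KO. The genes of both lists were fitted with all libraries only. The list's medians in the order given for cohesin were −0.13, −0.21, 0.10, 0.00058, −0.33 and −0.06. The marker sums above moved with genotype in the same libraries, and their part in these falls was not tested.

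Genes whose profile was most like these were sought among 12108 genes over the 18 libraries, by the mean absolute difference of log2 CPM, each centred on the LIN9 wt Sav1 wt mean of its experiment. Closest to the mean of the 8 condensin genes were Srsf11 (0.06), Fubp1 (0.06) and Sestd1 (0.07), beside a median of 0.28 over all genes compared. Closest to Top2a were Kif4 (0.09), Hlcs (0.09) and Otud4 (0.10), beside a median of 0.30, and closest to Mki67 were Neil3 (0.17), Nexn (0.17) and Aspm (0.20), beside a median of 0.54. All profiles share the same libraries, including those numbered 1.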

How the data were processed

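The authors mapped reads with TopHat2 2.1.0 and Bowtie2 to mm10, brought samples down to the same number of mappable reads and deposited raw counts per Ensembl gene (GRCm38.p6), made with summarizeOverlaps; overlap mode and strand are not given in the sources used here. The authors' own tables of log2 fold changes, log2 CPM, p-values and adjusted p-values were not used. From the deposited counts, genes with a mean count above 1 (19752 in experiment 1, 17675 in experiment 2) were tested with edgeR 4.0.16 (R 4.3.3, TMM, robust quasi-likelihood), with Benjamini-Hochberg adjustment over all genes tested and a threshold of 0.05. Experiment 2 was fitted on all 12 libraries, so its SE and p-values also carry the spread of groups outside a comparison. Each SE was worked back from the test, as the size of the log2 fold change divided by the square root of its F statistic. DESeq2 1.42.0 and other settings were alternatives. The fit was also tested on simulated data, but no result of that test is given or used here. Each table listed 4 identifiers more than once. CPM use TMM-scaled library sizes, and log2 CPM a prior count of 2. Gene positions and lengths are from GENCODE M21. The genes, lists and markers were chosen with earlier results of these data known. From the lists, the text names the 2 largest rises and falls that passed, plus Top2b, Mcph1, Kif4, Smc1a and Smc3. No pair of replicates was alike within sampling noise, for which chi-square per degree of freedom would be near 1. It ran from 1.17 (libraries 2 and 3 of control) to 20.8 (libraries 1 and 3 of LIN9 KO in experiment 1).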

Additional observations from a re-analysis of the deposited data

How the results depend on the processing

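The number of the 10 genes that passed stayed the same or within 1.5 times under DESeq2, total-count scaling, no filter and filterByExpr. This also held for fits of 6 libraries, though Smc2 was added in that of double KO and Sav1 KO. Without single libraries the number ranged from 1 to 4 in experiment 1 and from 1 to 2 in LIN9 KO against control (2 in each with all libraries, where 20.9% and 23.2% of all genes passed). In double KO against Sav1 KO, Ncapd3 was added without library 3 of Sav1 KO. Without the 4 libraries numbered 1, an alternative added after seeing the data, the number was 1 in double KO against LIN9 KO and 4 in double KO against Sav1 KO. With all libraries 0.0113% and 23.4% of all genes passed in these comparisons. Smc4 in double KO against Sav1 KO (−0.02) changed sign with the replicate block (0.07546) and ranged from −0.19 to 0.08858 without single libraries. The replicate block changed none of the calls of the 10 genes, though it moved the adjusted p of Mki67 from 0.264 to 0.0519 in LIN9 KO against control and from 0.342 to 0.101 in double KO against Sav1 KO. Libraries were not treated as pairs, since in no 2 groups did deviations correlate above 0.1 for all 3 replicate numbers (0.0267 to 0.0873 in experiment 1). Control and LIN9 KO came nearest, at 0.393, 0.0891 and 0.17 for numbers 1, 2 and 3. Number 1 also correlated at 0.181 (LIN9 KO and Sav1 KO) and 0.143 (control and Sav1 KO). Counts of all genes that passed moved by over 1.5 times in Sav1 KO against control (3; 22 with no filter, 31 with 6 libraries, 13 and 15 without libraries numbered 1), double KO against LIN9 KO (2; 77 by DESeq2, 309 with no filter, 0 with filterByExpr or 6 libraries, 84 with the block, 134 and 34 without libraries numbered 1) and the interaction (0; 17 with no filter, 19 and 4). The causes were not tested.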
